A study of Homo sapiens with 15 samples.

Results

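HEK293T cells with a siRNA against the NoBody transcript were compared directly with HEK293T cells with a siRNA against Dcp2. The arrays were chosen by their sample titles, 3 for LOC550643 siRNA and 3 for Dcp2 siRNA, which makes 6 of the 15 arrays of the series. Each called gene described with values is given with the mean of the 3 non-silencing arrays or its distance from it, so that it can be seen which of the siRNA groups lay away from that control. The remaining arrays, 3 with DcpS siRNA and 3 with GAPDH siRNA, entered the estimate of the spread. HEK293T is an established line from human embryonic kidney that carries the large T antigen of SV40. All groups shared the same schedule of siRNA transfection, then actinomycin D at 1 ug/mL for 4 hours, begun 48 hours after transfection, and RNA extraction from the whole cell. The NoBody siRNA was a pool of 4 designs against LOC550643, and the non-silencing siRNA matches no human gene. Separate cultures are not mentioned in the labels, so every p-value below measures the spread between samples of a group, and that spread may be technical only.

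NoBody is a short polypeptide encoded by the transcript LOC550643, once annotated as non-coding. It binds EDC4, a scaffold of the mRNA decapping complex, and affects the number of P-bodies, the cytoplasmic granules where decapping factors gather. Dcp2 is the catalytic subunit that removes the cap from deadenylated mRNA, after which the exonuclease XRN1 degrades the body of the transcript. Actinomycin D blocks transcription, so levels after it depend on the amount of mRNA before the drug and on its decay. According to the design text, Dcp2 siRNA served as the functionally related comparison for NoBody siRNA.

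DCP2 itself separated the groups. It measured 8.56, 8.40 and 8.66 log2 units on the 3 NoBody arrays, 6.23, 6.42 and 6.36 on the 3 Dcp2 arrays, and 7.98, 8.22 and 8.21 on the 3 non-silencing arrays. Every Dcp2 array lay below every other array, DcpS and GAPDH arrays included. The difference was 2.21 log2 units (SE 0.13, 95% interval 1.94 to 2.47), or 4.61-fold, with a limma adjusted p of 1.58e-07. Against non-silencing, DCP2 fell by 1.80 with Dcp2 siRNA (adjusted p = 3.15e-06). With NoBody siRNA it measured 0.40 above non-silencing, which did not pass the test (adjusted p = 0.148). The transcript targeted by the NoBody siRNA had no named probe set under LOC550643 or its newer names, so its knockdown was not analysed here.

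The arrays were alike in scale, with medians over all probe sets between 4.01 and 4.08 log2 units. Over all probe sets, arrays correlated at 0.9895 to 0.9908 within the NoBody and Dcp2 groups and at 0.9852 to 0.9898 between them. Of the markers of the embryonic kidney line, IRS4, KRT18 and VIM were bright, and PAX2, LHX1 and KRT8 were intermediate. None of 11 measured markers of blood cells, fibroblasts, endothelial cells or hepatocytes differed between the siRNAs by the test, and most lay near the low end of the scale, with CD68 and TTR above the rest. The leading component of the variation within groups took 24.7% of that variance and is called the array score here. It was -5.43, -2.82 and 11.58 on the NoBody arrays, 10.67, 7.89 and 4.00 on the Dcp2 arrays, and -20.19, -0.81 and 4.09 on the non-silencing arrays. The mean score was thus higher with Dcp2 siRNA (7.52) than with NoBody siRNA (1.11) or non-silencing siRNA (-5.64), and differences with the score as a covariate are given below where genes follow it.

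The difference between the siRNAs was called for 477 of 14884 genes at a limma adjusted p under 0.05, which is 3.2% of the genes tested. Of these, 245 were higher with NoBody siRNA (1.65%) and 232 were lower (1.56%). The median difference was 0.527 log2 units among the higher genes and -0.521 among the lower, so most called changes were small. Only 7 of the higher and 9 of the lower genes differed by at least 1 log2 unit. The called genes were brighter than average, with a median level of 7.15 (higher) and 7.46 (lower) against 5.47 for all genes. All 477 had NoBody and Dcp2 arrays that did not overlap, which was true of 22.4% of all genes tested. At an unadjusted p under 0.05, 2393 genes differed (16.1%).

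**Figure D1:**
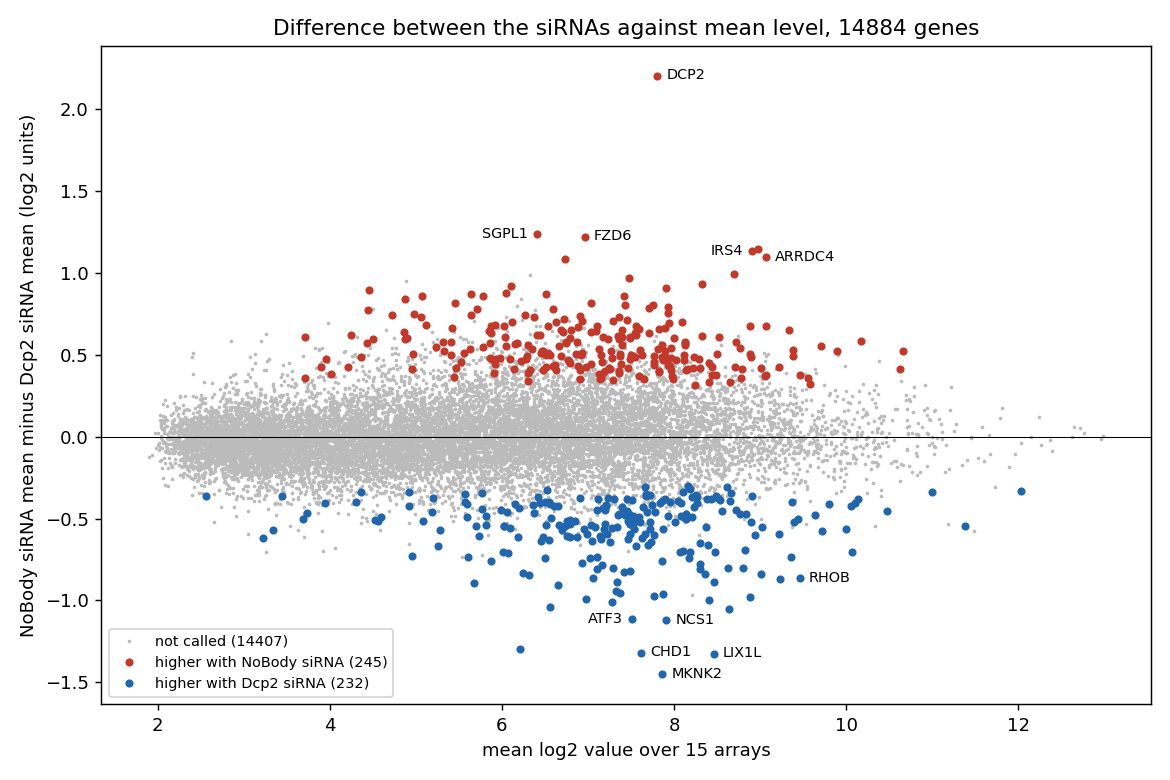
Each point is a gene, with its mean log2 value over 15 arrays on the horizontal axis and the NoBody siRNA mean minus the Dcp2 siRNA mean, in log2 units, on the vertical axis. Red points are the 245 called genes higher with NoBody siRNA and blue points the 232 higher with Dcp2 siRNA. DCP2 stands alone at 2.21, and MKNK2 is the lowest at -1.45.

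The count rested on single arrays. It was 149 without NoBody replicate 1, 220 without NoBody replicate 2 and 468 without NoBody replicate 3. Leaving out Dcp2 replicate 1, 2 or 3 gave 167, 262 and 251. Leaving out a non-silencing array left between 402 and 499. The balance of directions moved too, from 51.4% higher with all arrays to 37.6% without NoBody replicate 1 and 40.1% without Dcp2 replicate 1. There were 118 genes called without each of the 6 compared arrays in turn, 53 higher and 65 lower with NoBody siRNA, and no called gene changed direction under any setting tried.

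**Figure D2:**
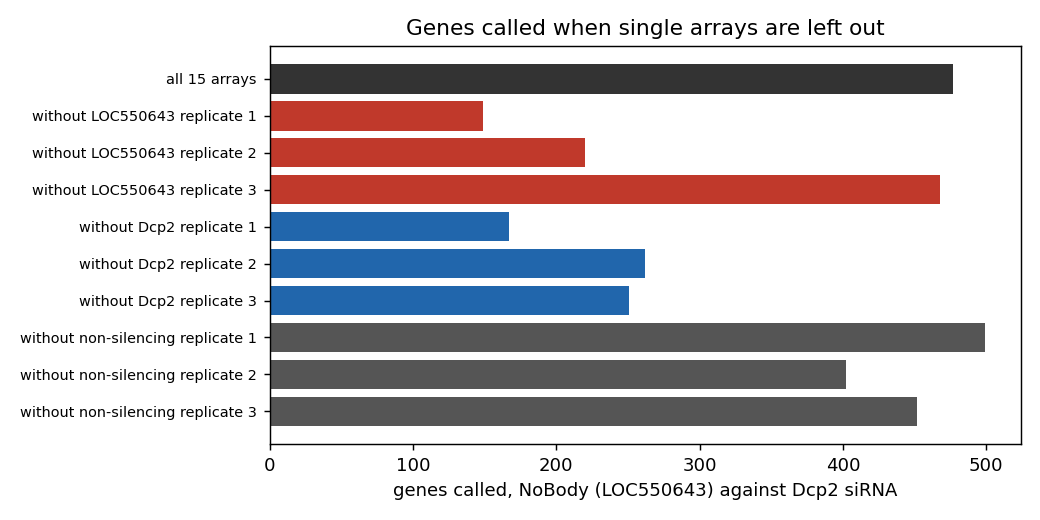
Bars give the number of genes called between NoBody siRNA and Dcp2 siRNA with all 15 arrays (477) and with each of 9 arrays left out. The shortest bars are those without NoBody (LOC550643) replicate 1 (149) and without Dcp2 replicate 1 (167), and the bar without NoBody replicate 3 (468) is close to that with all arrays.

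The position of the non-silencing mean described which siRNA group lay farther from that control. Of the 245 genes higher with NoBody siRNA, the non-silencing mean lay nearer to NoBody for 155 and nearer to Dcp2 for 90. Of the 232 lower genes, it lay nearer to Dcp2 for 142 and nearer to NoBody for 90. In both directions the larger number thus had the control nearer to the group with the higher level, which was NoBody siRNA in the first set and Dcp2 siRNA in the second. The split depended on the control. For the higher genes, DcpS lay nearer to NoBody for 132 and to Dcp2 for 113, and GAPDH for 123 and 122. For the lower genes, DcpS lay nearer to Dcp2 for 159 and to NoBody for 73, and GAPDH for 169 and 63. Each siRNA was also tested against non-silencing, and these tests share the non-silencing arrays. NoBody siRNA differed from non-silencing for 233 genes (1.57%), 98 of them higher (0.658%) and 135 lower (0.907%). Dcp2 siRNA differed from it for 294 (1.98%), 156 higher (1.05%) and 138 lower (0.927%). Of the higher genes, 77 were called against non-silencing with Dcp2 siRNA only, 25 with NoBody siRNA only, 0 with both and 143 with neither. Of the lower genes, 37 were called with Dcp2 siRNA only, 83 with NoBody siRNA only, 2 with both and 110 with neither. For 253 of the 477 genes, then, the siRNAs differed from each other while neither passed the test against the control.

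**Figure D3:**
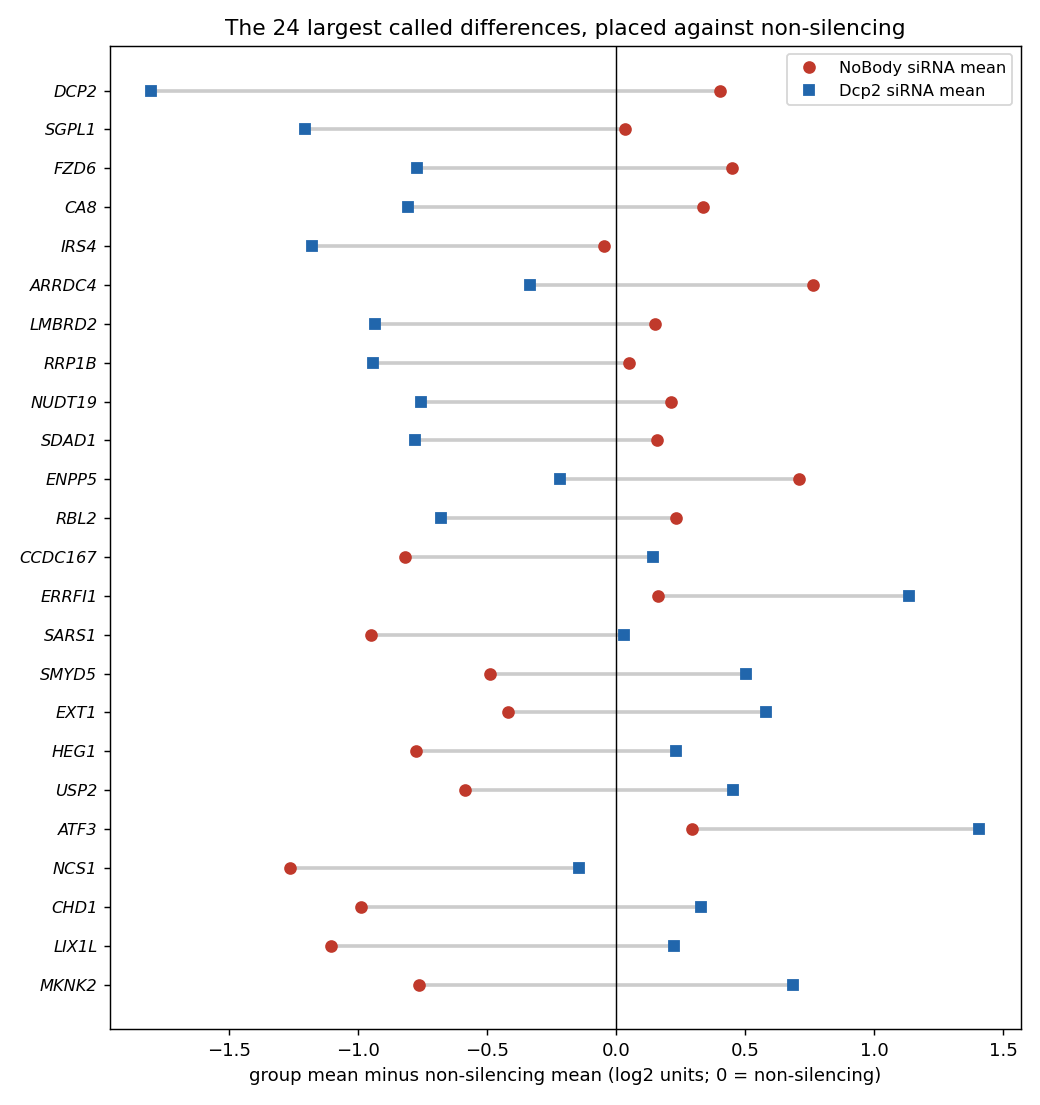
For the 24 largest called differences, small RNAs and olfactory receptors left out, red circles give the NoBody siRNA mean and blue squares the Dcp2 siRNA mean, each minus the non-silencing mean in log2 units, so that 0 is the control. SGPL1, IRS4 and RRP1B have the red circle near 0 and the blue square far to the left. SARS1 and NCS1 have the blue square near 0 and the red circle far to the left, and MKNK2 has its markers on opposite sides of 0.

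Several of the largest differences belonged to genes that were reduced with NoBody siRNA and stood near the control with Dcp2 siRNA. LIX1L, a little-studied gene with an RNA-binding domain, measured 7.72, 7.57 and 7.65 log2 units on the NoBody arrays, 9.0, 8.93 and 8.98 on the Dcp2 arrays, and 8.83, 8.72 and 8.69 on the non-silencing arrays. All 3 NoBody arrays lay more than a log2 unit below every Dcp2 array. LIX1L was 2.51-fold lower with NoBody siRNA (difference -1.33, SE 0.09, adjusted p = 1.2e-06), with -1.10 against non-silencing (adjusted p = 1.72e-05) and 0.22 for Dcp2 siRNA against non-silencing (adjusted p = 0.225). It was not at the control level with every other siRNA, since its mean with DcpS siRNA was 8.13.

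CHD1, a chromatin remodeler of transcribed genes, measured 6.79, 6.28 and 7.10 on the NoBody arrays, 8.04, 8.03 and 8.05 on the Dcp2 arrays, and 7.57, 7.69 and 7.87 on the non-silencing arrays. The NoBody arrays were spread widely but all lay below the others. The difference was -1.32 (SE 0.17, adjusted p = 0.000533), of which -0.99 separated NoBody siRNA from non-silencing (adjusted p = 0.00702). NCS1, a neuronal calcium sensor protein, measured 6.80, 7.05 and 7.0 on the NoBody arrays, 8.38, 7.96 and 7.88 on the Dcp2 arrays, and 8.47, 7.97 and 8.19 on the non-silencing arrays. The Dcp2 and non-silencing values of NCS1 were intermixed, and the NoBody arrays lay below both. It differed by -1.12 (SE 0.15, adjusted p = 0.000765).

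SARS1, the cytoplasmic seryl-tRNA synthetase, measured 7.99, 7.85 and 8.39 with NoBody siRNA against 9.06, 9.04 and 9.07 with Dcp2 siRNA and 9.27, 8.97 and 8.85 with non-silencing siRNA. The NoBody arrays did not overlap either group. The difference was -0.98 (SE 0.14, adjusted p = 0.00118), and Dcp2 siRNA lay 0.03 from non-silencing. SARS1 was the only 1 of 17 measured aminoacyl-tRNA synthetases that was called (5.88%, against 1.56% of all genes called lower). The median difference of that list was 0.08. HEG1, a membrane receptor known from the heart and vessel wall, had a mean of 6.48 ± 0.15 (SD, n = 3) with NoBody siRNA, 7.49 ± 0.12 with Dcp2 siRNA and 7.26 ± 0.08 with non-silencing siRNA. Its difference of -1.01 had an adjusted p of 0.000268. CCDC167, a small coiled-coil protein, followed with -0.96 (adjusted p = 0.00229) around a non-silencing mean of 8.0.

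DIAPH1, a formin that assembles unbranched actin filaments, had a mean of 6.64 with NoBody siRNA, 7.43 with Dcp2 siRNA and 7.52 with non-silencing siRNA. It was lower by -0.78 (adjusted p = 0.000253). Among 15 measured genes of the actin and SRF or YAP list, DIAPH1 was the only one called (6.67%, against 1.56% of all genes called lower). The median difference of that list was -0.03. HYOU1, a chaperone of the endoplasmic reticulum, was at 7.95 with NoBody siRNA and at 8.75 with both Dcp2 and non-silencing siRNA (difference -0.80, adjusted p = 0.000207). The value for HYOU1 depended on the probe set, and the mean of its probe sets gave -0.45. LIX1L, CHD1, NCS1, SARS1, HEG1, CCDC167, DIAPH1 and HYOU1 stayed called without each array in turn.

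The opposite pattern, a reduction with Dcp2 siRNA from a level that NoBody and non-silencing siRNA shared, was led after DCP2 by SGPL1. SGPL1, the lyase that breaks down sphingosine-1-phosphate, measured 7.08, 6.79 and 6.59 on the NoBody arrays, 5.25, 5.63 and 5.87 on the Dcp2 arrays, and 6.91, 6.84 and 6.60 on the non-silencing arrays. The NoBody and non-silencing arrays covered the same range, and the Dcp2 arrays lay below it. The DcpS and GAPDH means were 6.57 and 6.27. The difference was 1.24 (SE 0.16, adjusted p = 0.000531), with 0.03 between NoBody and non-silencing siRNA and -1.20 between Dcp2 and non-silencing siRNA (adjusted p = 0.002). Among 13 measured genes of sphingolipid metabolism, SGPL1 was the only one called higher (7.69%, against 1.65% of all genes). S1PR2, a receptor for sphingosine-1-phosphate, was the only one called lower (7.69%, against 1.56% of all genes). It differed by -0.55 (adjusted p = 0.0453) around a non-silencing mean of 6.90. The S1PR2 call was lost without any 1 of 6 arrays, among them NoBody replicate 1.

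RRP1B, a nucleolar protein of ribosome biogenesis, measured 9.05, 8.93 and 8.80 on the NoBody arrays, 7.94, 7.88 and 7.99 on the Dcp2 arrays, and 8.98, 8.92 and 8.74 on the non-silencing arrays. The Dcp2 arrays stood apart, and the DcpS (8.91) and GAPDH (8.86) means lay with NoBody and the control. RRP1B differed by 0.99 (SE 0.12, adjusted p = 0.000348). SDAD1, another nucleolar protein, whose yeast relative acts in export of the large ribosomal subunit, differed by 0.93 (adjusted p = 0.0225), with a non-silencing mean of 8.46 between 8.62 and 7.68. Its call was lost without NoBody replicate 1 or 2 or Dcp2 replicate 1 or 2, and with the array score as a covariate its difference was 0.75. Against non-silencing, Dcp2 siRNA was not called for SDAD1 (-0.78, adjusted p = 0.0661).

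IRS4, an insulin receptor substrate typical of the HEK293 line, measured 9.70, 9.65 and 8.85 on the NoBody arrays, 8.12, 8.19 and 8.48 on the Dcp2 arrays, and 9.78, 9.50 and 9.05 on the non-silencing arrays. NoBody replicate 3 lay nearest to the Dcp2 arrays but did not overlap them. The DcpS and GAPDH means, 8.78 and 8.63, also lay below the non-silencing mean of 9.44. Some DcpS and GAPDH arrays overlapped the Dcp2 arrays. The difference was 1.13 (SE 0.26, adjusted p = 0.0248), and the call was lost without NoBody replicate 1 or 2 or Dcp2 replicate 1 or 2. IGFBP5, a secreted binding protein for insulin-like growth factors, was called as well (0.70, adjusted p = 0.0396) with a non-silencing mean of 8.69, and its call was lost without NoBody replicate 1 or 2, any Dcp2 array or non-silencing replicate 2. The DcpS and GAPDH means of IGFBP5 were 7.74 and 8.15. IRS4 and IGFBP5 were the 2 called genes of 15 measured in insulin and IGF signalling (13.3%, against 1.65% of all genes called higher). The list had a median difference of -0.08. IRS1, IRS2, INSR and IGF1R were not called, at -0.15, 0.16, 0.11 and 0.19.

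CA8, a carbonic anhydrase relative that binds the inositol trisphosphate receptor, differed by 1.14 (adjusted p = 0.0015) with means of 9.59, 8.45 and 9.26 with NoBody, Dcp2 and non-silencing siRNA. LMBRD2, a membrane protein, differed by 1.08 (adjusted p = 0.00252), with a non-silencing mean of 6.94. NUDT19, a Nudix hydrolase of peroxisomes, differed by 0.97 (adjusted p = 0.0021), with a non-silencing mean of 7.74. RBL2, the pocket protein p130 that holds cells in quiescence, had means of 8.27 ± 0.16 with NoBody siRNA, 7.36 ± 0.05 with Dcp2 siRNA and 8.04 ± 0.07 with non-silencing siRNA (SD, n = 3), and differed by 0.91 (adjusted p = 0.000531). Dcp2 siRNA was called against non-silencing for each of these 4 genes, and NoBody siRNA for none of them. With DcpS and GAPDH siRNA, CA8 (8.77 and 8.79) and NUDT19 (7.29 and 7.43) also lay below non-silencing. LMBRD2 (7.08 and 6.52) and RBL2 (7.67 and 8.21) lay below it with only 1 of these siRNAs. The calls of CA8, LMBRD2, NUDT19, RBL2, RRP1B and SGPL1 held without each array in turn.

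**Figure D4:**
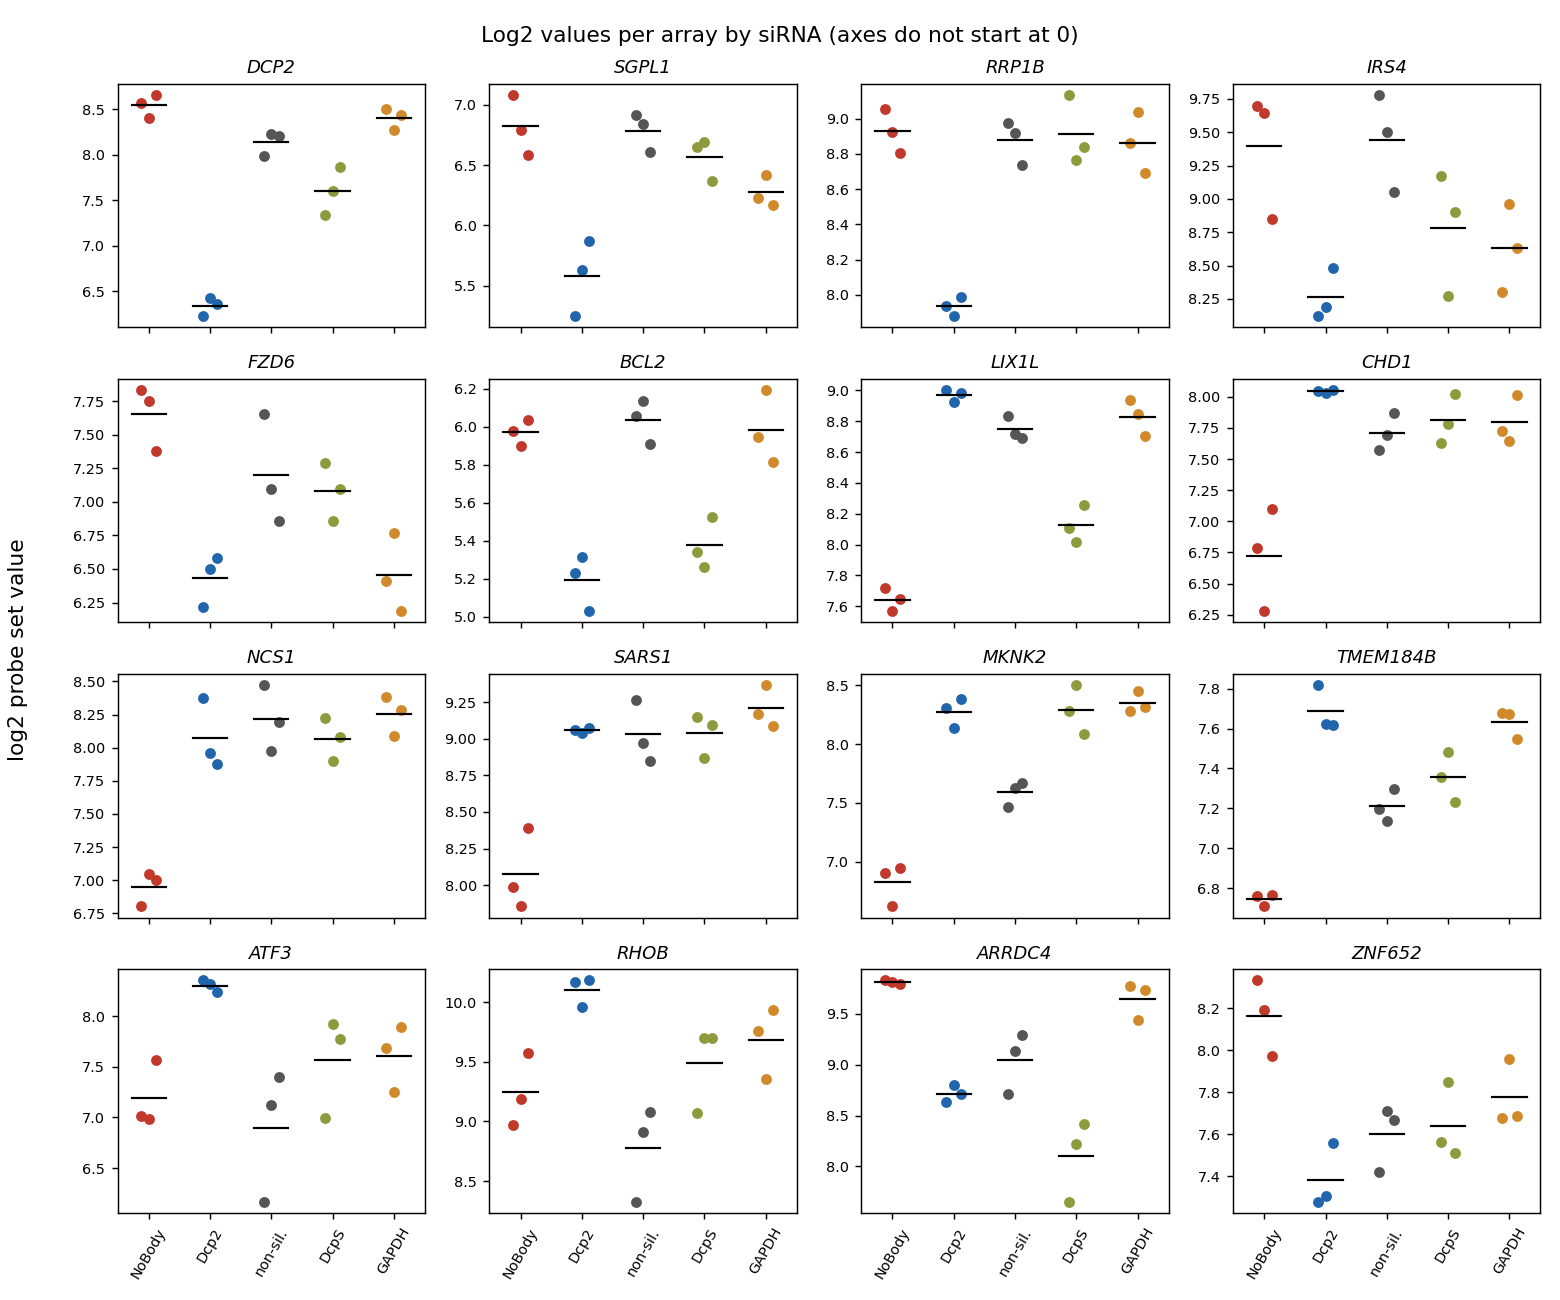
Each panel plots the log2 value of a gene on every array, by siRNA, with a bar at the mean of the 3 arrays, and the vertical axes do not start at 0. In the panels of DCP2, SGPL1 and RRP1B the Dcp2 arrays lie lowest, in that of IRS4 the Dcp2 mean is lowest, and in those of LIX1L, CHD1, NCS1 and SARS1 the NoBody arrays lie lowest. MKNK2 and TMEM184B have the non-silencing arrays between the NoBody and Dcp2 arrays.

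MKNK2 and TMEM184B were the 2 genes for which each siRNA was called against non-silencing, in opposite directions. MKNK2, a kinase that phosphorylates the cap-binding protein eIF4E, measured 6.91, 6.62 and 6.94 on the NoBody arrays, 8.31, 8.13 and 8.38 on the Dcp2 arrays, and 7.46, 7.63 and 7.67 on the non-silencing arrays. The 3 groups formed separate steps with no overlap. NoBody siRNA lay -0.76 from non-silencing (adjusted p = 0.00413), Dcp2 siRNA lay 0.69 above it (adjusted p = 0.0101), and the siRNAs differed by -1.45 (SE 0.12, adjusted p = 1.12e-05), or 2.74-fold. The DcpS and GAPDH means, 8.29 and 8.35, were beside that of Dcp2 (8.28), so among the 5 groups both NoBody and non-silencing siRNA stood lower. TMEM184B, a membrane protein, measured 6.76, 6.71 and 6.77 with NoBody siRNA, 7.82, 7.62 and 7.62 with Dcp2 siRNA, and 7.20, 7.14 and 7.30 with non-silencing siRNA. Its groups were also separate, with a difference of -0.94 (SE 0.09, adjusted p = 6.59e-05). TMEM184B was chosen after its values were seen, and both calls held without each array in turn.

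Further genes had the control between the siRNAs, but not both siRNAs were called against it. USP2, a ubiquitin-specific protease, differed by -1.04 (adjusted p = 0.000499), with -0.58 for NoBody and 0.45 for Dcp2 siRNA against non-silencing. The mean of its probe sets gave -0.71. EXT1, which builds heparan sulfate chains, differed by -1.0 (adjusted p = 0.00117) around a non-silencing mean of 8.22, and SMYD5, a lysine methyltransferase, by -0.99 (adjusted p = 0.00113) around 6.90. FZD6, a Wnt receptor, was higher with NoBody siRNA by 1.22 (SE 0.20, adjusted p = 0.00292) around a non-silencing mean of 7.20. With the array score as a covariate the difference of FZD6 was 1.06. Its mean with GAPDH siRNA, 6.46, was beside that with Dcp2 siRNA (6.43), and its mean with DcpS siRNA was 7.08.

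A few of the largest differences were increases with NoBody siRNA. ARRDC4, an arrestin-related gene that responds to glucose, measured 9.83, 9.81 and 9.79 on the NoBody arrays, 8.63, 8.80 and 8.71 on the Dcp2 arrays, and 8.71, 9.13 and 9.30 on the non-silencing arrays. The NoBody arrays were nearly identical and lay above both groups, while the Dcp2 and non-silencing arrays overlapped. The difference was 1.10 (SE 0.17, adjusted p = 0.00254), with 0.76 against non-silencing (adjusted p = 0.0346). ARRDC4 was far from constant among the other groups, with a mean of 8.10 with DcpS siRNA and 9.65 with GAPDH siRNA. ENPP5, an ectonucleotide pyrophosphatase relative, had means of 6.56, 5.63 and 5.85 with NoBody, Dcp2 and non-silencing siRNA and differed by 0.92 (adjusted p = 0.00225). With GAPDH siRNA its mean was also 6.56. The calls of ARRDC4, ENPP5, USP2, EXT1, SMYD5 and FZD6 held without each array in turn.

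Immediate early genes, which are induced within minutes of a stimulus and encode short-lived mRNA, leaned toward higher levels with Dcp2 siRNA. Of 35 measured, 26 were lower with NoBody siRNA than with Dcp2 siRNA and 9 were higher, with a median difference of -0.22 beside -0.011 for all genes. Called lower were 4 (11.4%, against 1.56% of all genes), namely ATF3, ERRFI1, RHOB and JUND, and limma called 0 higher. An unadjusted p under 0.05 in either direction was reached by 14 of the 35, and by 16.1% of all genes. At the median, the listed genes lay 0.23 above non-silencing with NoBody siRNA and 0.50 above it with Dcp2 siRNA. Against non-silencing, 11 of them were called with Dcp2 siRNA (against 1.98% of all genes) and 0 with NoBody siRNA (against 1.57%). The Dcp2 contrast itself was unstable. Over all genes it gave 294 calls, but 41 without non-silencing replicate 1 and 393 without non-silencing replicate 3. It gave 39 with only the compared arrays and 124 with the array score as a covariate. How many of the 11 calls remained in those fits was not counted.

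ATF3, a stress-induced transcription factor, measured 7.01, 6.98 and 7.57 on the NoBody arrays, 8.35, 8.32 and 8.24 on the Dcp2 arrays, and 6.17, 7.12 and 7.40 on the non-silencing arrays. The Dcp2 arrays lay above all others, and the NoBody arrays fell within or just above the wide range of the control. The difference was -1.11 (SE 0.28, adjusted p = 0.0432), with 1.41 for Dcp2 siRNA above non-silencing (adjusted p = 0.023) and 0.29 for NoBody siRNA (adjusted p = 0.76). RHOB, a small GTPase of endosomes whose mRNA turns over quickly, measured 8.97, 9.19 and 9.57 with NoBody siRNA, 10.17, 9.96 and 10.18 with Dcp2 siRNA, and 8.33, 8.91 and 9.08 with non-silencing siRNA. Again the Dcp2 arrays were highest, and the difference was -0.86 (SE 0.21, adjusted p = 0.039). ERRFI1, a feedback inhibitor of the EGF receptor, differed by -0.97 (adjusted p = 0.0322), with Dcp2 siRNA 1.14 and NoBody siRNA 0.16 above non-silencing, and JUND, a subunit of AP-1, by -0.65 (adjusted p = 0.035), with 0.92 and 0.28. The DcpS and GAPDH means also lay above the non-silencing mean for ATF3 (7.56 and 7.61, against 6.89) and RHOB (9.49 and 9.68, against 8.77). The same held for ERRFI1 (7.84 and 7.54, against 7.38) and JUND (8.54 and 8.38, against 7.79).

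DUSP1, a phosphatase that switches off MAP kinases, had a difference of -0.96 that missed the threshold (adjusted p = 0.0521), as did GEM at -0.73 (adjusted p = 0.0896), EGR1 at -0.48 (adjusted p = 0.0515) and JUN at -0.55 (adjusted p = 0.229). JUN had means of 10.57, 11.12 and 9.70 with NoBody, Dcp2 and non-silencing siRNA. FOS, MYC and IER3, the members best known for unstable mRNA, were not called either, at -0.28, 0.21 and -0.21.

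The immediate early calls rested on single arrays. With limma, the list had 0 called genes without NoBody replicate 1 or 2 or without Dcp2 replicate 1, 2 or 3. The count over all genes fell as well in those fits, from 477 to between 149 and 262. The list had 2 without non-silencing replicate 2 (402 of all genes) and 7 without non-silencing replicate 1 (499). These genes varied with the array score, which was highest on NoBody replicate 3 and on Dcp2 replicate 1 among the 6 arrays and lowest on non-silencing replicate 1. With the score as a covariate, 7 of the 35 were called, while the count over all genes rose from 477 to 705. The differences of ATF3, ERRFI1, RHOB and JUND were then -0.87, -0.77, -0.68 and -0.53.

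Promoter sequences were available from RefSeq (GRCh38.p14) for 10749 of the tested genes and were searched for the cAMP response element TGACGTCA, a site for the CREB and ATF family that reads the same on both strands, and for the AP-1 site TGAGTCA or, on the other strand, TGACTCA. Each motif was searched separately, and neither contains the other. A single promoter per gene was searched, so other starts of a gene were not covered. In the 250 bases before the start, the cAMP response element stood in 12 of 194 genes called lower with NoBody siRNA (6.19%) and in 1 of 199 called higher (0.503%), beside 252 of the 10749 tested genes (2.34%) and 482 of all 27305 promoters (1.77%). The AP-1 site stood in 3 (1.55%) and 4 (2.01%) of these called sets, beside 3.3% of the tested genes. Promoters of called genes were richer in G and C than those of tested genes, with medians of 66.4% (lower), 65.2% (higher) and 62.8%. A match is only these letters in the window and says nothing on binding. The share was given with no test, and the part of base composition in it was not tested.

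Shown here are 4 of these 12 promoters, chosen to span the larger differences and the genes known best, each on the coding strand with the motif in capitals and its first base counted back from the start. C11orf24, with the largest difference of the 12, has it 35 bases before the start (chr11:68271974-68272223, minus strand). UBE2S, the enzyme that extends ubiquitin chains for the anaphase-promoting complex, has it at 88 (chr19:55407789-55408038, minus strand), and JUND at 200 (chr19:18281623-18281872, minus strand). CHPF, which polymerizes chondroitin sulfate, has it at 222 and again at 177 (chr2:219543810-219544059, minus strand).
C11orf24: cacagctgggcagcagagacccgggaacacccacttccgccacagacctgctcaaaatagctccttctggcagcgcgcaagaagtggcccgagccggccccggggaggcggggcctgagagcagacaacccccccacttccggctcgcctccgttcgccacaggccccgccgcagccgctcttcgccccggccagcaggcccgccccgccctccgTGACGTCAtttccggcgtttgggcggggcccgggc
UBE2S: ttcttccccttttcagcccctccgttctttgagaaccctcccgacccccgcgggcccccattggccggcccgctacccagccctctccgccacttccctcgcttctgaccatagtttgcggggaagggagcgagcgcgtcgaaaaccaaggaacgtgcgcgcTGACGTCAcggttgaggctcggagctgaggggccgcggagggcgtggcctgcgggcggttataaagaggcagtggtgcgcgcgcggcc
JUND: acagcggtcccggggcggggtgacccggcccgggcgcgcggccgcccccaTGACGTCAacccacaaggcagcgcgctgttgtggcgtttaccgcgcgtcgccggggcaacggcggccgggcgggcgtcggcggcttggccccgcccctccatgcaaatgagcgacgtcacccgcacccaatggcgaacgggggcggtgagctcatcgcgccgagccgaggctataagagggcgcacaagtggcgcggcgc
CHPF: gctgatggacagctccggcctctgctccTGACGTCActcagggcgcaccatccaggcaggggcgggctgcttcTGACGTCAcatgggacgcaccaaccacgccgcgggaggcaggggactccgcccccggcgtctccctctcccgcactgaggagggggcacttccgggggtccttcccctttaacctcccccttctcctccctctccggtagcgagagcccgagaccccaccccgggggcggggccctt

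These 4 genes reached their difference from different sides of the control. C11orf24 measured 6.43, 6.57 and 6.58 with NoBody siRNA, 7.40, 7.28 and 7.33 with Dcp2 siRNA, and 7.13, 7.08 and 7.08 with non-silencing siRNA (difference -0.81, SE 0.08, adjusted p = 6.88e-05). Its NoBody arrays lay below the control, as did those of CHPF, with means of 6.69, 7.26 and 7.25 (difference -0.57, adjusted p = 0.0129), a call lost without NoBody replicate 2 or Dcp2 replicate 3. UBE2S had means of 7.78, 8.52 and 8.04 with NoBody, Dcp2 and non-silencing siRNA (difference -0.74, adjusted p = 0.00754), and neither siRNA was called against the control. JUND measured 8.01, 7.83 and 8.36 with NoBody siRNA, 8.89, 8.64 and 8.61 with Dcp2 siRNA, and 7.52, 7.86 and 8.0 with non-silencing siRNA, and only the Dcp2 group was called against the control (adjusted p = 0.00954). Its means with DcpS and GAPDH siRNA were 8.54 and 8.38. The other promoters with the motif were those of EFCAB14, LINC00265, S1PR2, TTC1, ZNRD2, NACAD, CD2BP2 and ESS2. Of 25 immediate early genes with a promoter sequence, 4 had the cAMP response element (JUND, MAFF, DUSP1 and DUSP8), and the searched windows of ATF3, ERRFI1 and RHOB held neither motif. Any other starts of these genes were not searched.

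Outside DCP2, the decapping machinery itself differed little. Of 30 listed genes of decapping and P-bodies, 23 were measured, and 2 were called, DCP2 and XRN1. Both were higher with NoBody siRNA (8.7% of the list, against 1.65% of all genes), and DCP2 is itself a siRNA target. XRN1, which degrades decapped mRNA from its 5′ end, measured 7.87, 7.67 and 7.56 with NoBody siRNA, 7.12, 7.18 and 7.31 with Dcp2 siRNA, and 7.57, 7.79 and 7.53 with non-silencing siRNA. The Dcp2 arrays lay below the others, which overlapped each other. XRN1 was higher with NoBody siRNA by 0.50 (SE 0.10, adjusted p = 0.0117), and the call was lost without NoBody replicate 1 or Dcp2 replicate 1. The median difference of the list was -0.02, with 11 members above and 12 below 0.

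The other 21 members did not pass the test and lay between -0.23 and 0.24. Of the other enzymes that act on caps, NUDT16, NUDT3 and DXO differed by 0.24, 0.00 and -0.02. EDC4, the scaffold that binds NoBody, measured 7.33, 7.26 and 7.25 with NoBody siRNA and 7.37, 7.24 and 7.17 with Dcp2 siRNA. These arrays overlapped, with a difference of 0.02 and a 95% interval of -0.20 to 0.23. The decapping activators DCP1A, DCP1B, EDC3, PATL1, PNRC1, PNRC2 and DDX6 ranged from -0.16 (EDC3) to 0.04 (DDX6), and the translation repressor EIF4ENIF1 was at 0.23. LIMD1, AJUBA and WTIP, scaffold proteins found in P-bodies, were at 0.17, 0.22 and -0.15. The silencing adaptors TNRC6A, TNRC6B and TNRC6C were at -0.07, -0.08 and 0.19, the RNA-binding proteins MEX3A and MEX3B at -0.08 and -0.23, and the nuclear exonuclease XRN2 at 0.14.

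The exosome, which degrades RNA from its 3′ end, held a gene on each side. EXOSC6, a subunit of its ring, measured 7.36, 7.47 and 7.41 with NoBody siRNA, 8.0, 8.32 and 8.20 with Dcp2 siRNA, and 8.11, 8.13 and 7.97 with non-silencing siRNA. The NoBody arrays lay below both groups (difference -0.76, SE 0.09, adjusted p = 0.000531), and the call held without each array. The low level was not particular to NoBody siRNA, since the EXOSC6 mean was 7.53 with DcpS siRNA. With GAPDH siRNA it was 8.11. SKIC3, a subunit of the complex that feeds cytoplasmic mRNA to the exosome, was higher with NoBody siRNA by 0.43 (adjusted p = 0.0462) with a non-silencing mean of 8.02, and 6 arrays each ended its call when left out, NoBody replicates 1 and 2, non-silencing replicate 2 and all Dcp2 arrays. The other 16 of 18 measured members were not called, and the median difference was 0.04. Each call was 5.56% of the list, against 1.65% of all genes called higher and 1.56% lower.

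No deadenylation gene of 5 measured was called, at a median of 0.22. No call was made for the 6 measured factors of nonsense-mediated decay (median -0.01), 6 genes of the microRNA pathway (0.06) and 7 regulators of mRNA stability (0.10). At an unadjusted p under 0.05, limma gave 2, 1, 0 and 1 genes of these 4 lists, a threshold that 16.1% of all genes passed. Their coverage was partial, for example 5 of 20 listed deadenylation genes. Of 14 measured transcripts known as nonsense-mediated decay substrates, 11 were lower with NoBody siRNA (78.6%, beside 52.6% of all genes), at a median of -0.13. ATF3, also an immediate early gene, was the only one called (7.14%, against 1.56% of all genes called lower). Among 9 stress granule genes, FMR1, the RNA-binding protein of fragile X syndrome, was the only one called (11.1%, against 1.65% of all genes called higher). It was higher with NoBody siRNA by 0.53 (adjusted p = 0.0258) around a non-silencing mean of 7.62. That call was lost without NoBody replicate 1 or 2 or Dcp2 replicate 1 or 3. The LSM ring, the proteasome subunits and the histone genes had 0 measured members under the symbols searched.

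Genes of mitosis were mostly lower with NoBody siRNA than with Dcp2 siRNA. Of 30 measured, 23 were lower and 7 higher, with a median of -0.13, beside 52.6% of all genes below 0. Called lower were 3 (10.0%, against 1.56% of all genes), CDK1, AURKA and CDCA8. The list lay above non-silencing with both siRNAs at the median, by 0.10 with NoBody siRNA and by 0.23 with Dcp2 siRNA. CDK1, the kinase that drives entry into mitosis, measured 8.23, 8.12 and 8.72 on the NoBody arrays, 9.10, 9.22 and 9.28 on the Dcp2 arrays, and 8.76, 9.09 and 9.09 on the non-silencing arrays. NoBody replicates 1 and 2 lay below all others and replicate 3 just below the control. The difference was -0.84 (SE 0.14, adjusted p = 0.00465), with -0.62 against non-silencing (adjusted p = 0.0417). AURKA, a centrosome kinase, differed by -0.66 (adjusted p = 0.0185) around a non-silencing mean of 7.69. CDCA8, a subunit of the chromosomal passenger complex, differed by -0.47 (adjusted p = 0.0351), with NoBody siRNA at -0.02 and Dcp2 siRNA at 0.45 against non-silencing. The CDK1 call held without each array, while those of AURKA and CDCA8 were lost without NoBody replicate 1 or 2 or any Dcp2 array. With the array score as a covariate the differences were -0.75, -0.59 and -0.41. CCNB1, PLK1, MKI67 and TOP2A were not called, at -0.23, -0.27, -0.10 and -0.10.

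Among 27 genes of the G1/S transition and DNA replication, CCND1, cyclin D1, was higher with NoBody siRNA (0.52, adjusted p = 0.0114), with means of 6.83, 6.31 and 6.44 with NoBody, Dcp2 and non-silencing siRNA. MCM5, a subunit of the replicative helicase, was lower (-0.36, adjusted p = 0.0312) around a non-silencing mean of 8.88. The list had a median of -0.03, and each call was 3.7% of it, against 1.65% of all genes higher and 1.56% lower. The CCND1 call was lost without NoBody replicate 1 or 2 or Dcp2 replicate 1 or 3, and the MCM5 call without NoBody replicate 1 or 2 or any Dcp2 array.

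Of 14 measured BCL2 family genes, 4 were called, 2 in each direction (14.3%, against 1.65% of all genes higher and 1.56% lower), and they do not share a role. BCL2, which protects cells from apoptosis, measured 5.98, 5.90 and 6.03 on the NoBody arrays, 5.23, 5.31 and 5.03 on the Dcp2 arrays, and 6.06, 6.13 and 5.91 on the non-silencing arrays. Of these 3 groups the Dcp2 arrays were low, with a difference of 0.78 (SE 0.11, adjusted p = 0.0015), although the mean with DcpS siRNA was low as well (5.37). PMAIP1, a BH3-only activator of apoptosis, was higher with NoBody siRNA by 0.38 (adjusted p = 0.0495), just inside the threshold, around a non-silencing mean of 8.67. BAK1 and BAX, the effectors that open the mitochondrial outer membrane, were lower with NoBody siRNA by -0.50 (adjusted p = 0.0193) and -0.45 (adjusted p = 0.00945), and for both the non-silencing mean (7.96 and 7.20) lay nearer to NoBody. The BCL2 call held without each array. That of PMAIP1 was lost without any 1 of 8 arrays, that of BAK1 without NoBody replicate 1 or 2 or Dcp2 replicate 1 or 3, and that of BAX without NoBody replicate 1. BAX and PMAIP1 were also the only called genes of 11 measured p53 targets, 1 in each direction (9.09%, against 1.65% of all genes higher and 1.56% lower).

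**Figure D5:**
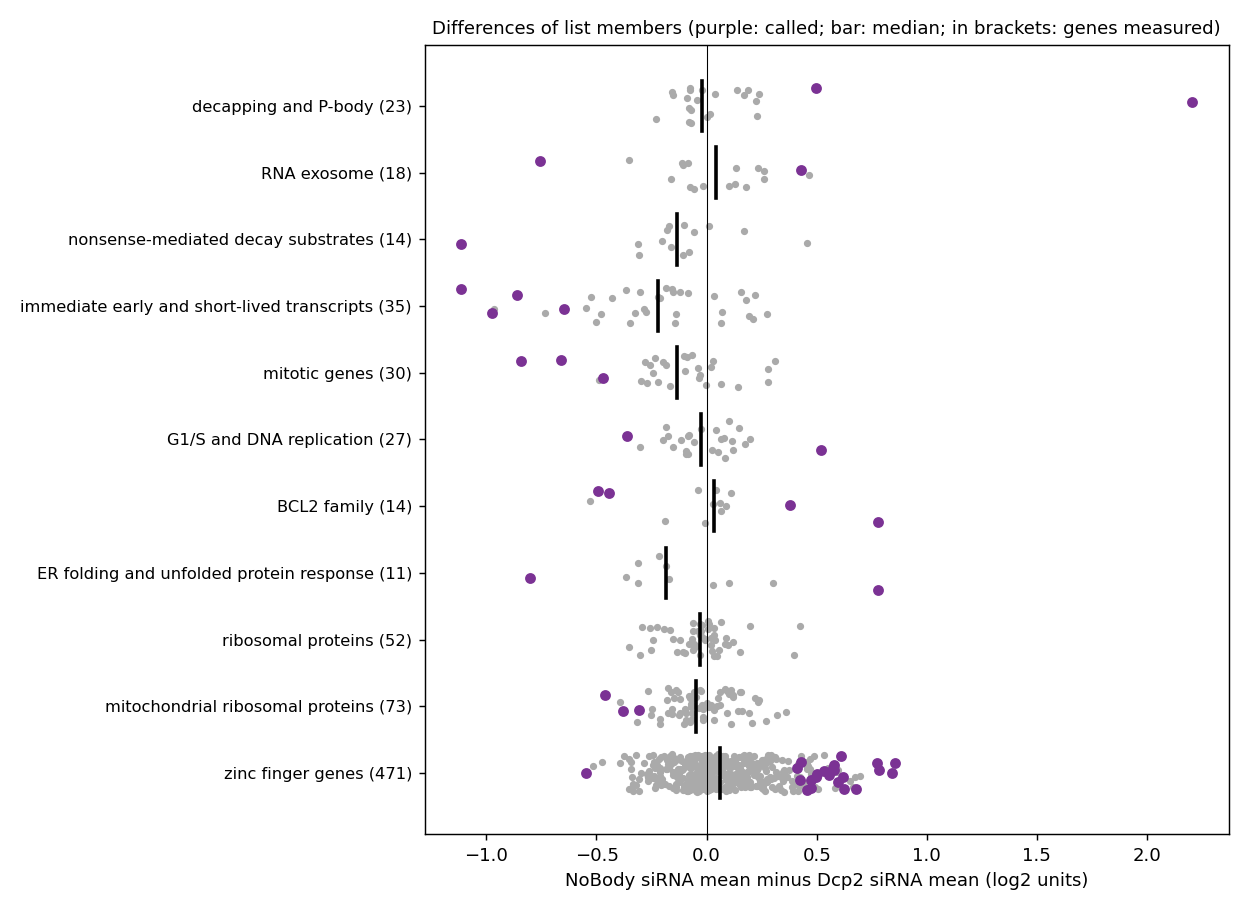
Each row is a gene list with the number of measured genes in brackets, each point a gene, and the horizontal axis the NoBody siRNA mean minus the Dcp2 siRNA mean in log2 units. Purple points are called genes and black bars are medians. The medians of immediate early genes (-0.22), nonsense-mediated decay substrates (-0.13) and mitotic genes (-0.13) lie left of 0, and the 22 called zinc finger genes on the right stand against 1 on the left.

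Protein folding genes of the endoplasmic reticulum again held a gene on each side. Beside HYOU1, ERO1B, an oxidase that supplies disulfide bonds to folding proteins, had means of 6.63, 5.85 and 6.70 with NoBody, Dcp2 and non-silencing siRNA and was higher with NoBody siRNA by 0.78 (SE 0.12, adjusted p = 0.0026). That call held without each array. The other 9 of 11 measured genes of this list were not called, and each call was 9.09% of it, against 1.65% of all genes higher and 1.56% lower. Of 11 measured ATF4 targets and amino acid genes limma called 0, with 2 at an unadjusted p under 0.05, and of 7 chaperones it also called 0, with 3 at that threshold. Over all genes, 16.1% passed that threshold.

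Metabolic genes gave single calls. GPI, the isomerase of glucose 6-phosphate, was lower with NoBody siRNA (-0.34, adjusted p = 0.0316), with a mean of 10.70 against 11.04 with Dcp2 siRNA and 11.15 with non-silencing siRNA. Of 9 measured glycolysis genes, 8 were lower with NoBody siRNA (88.9%, beside 52.6% of all genes), at a median of -0.20. GPI was the only one called (11.1%, against 1.56% of all genes called lower). SQLE, squalene epoxidase of cholesterol synthesis, was higher with NoBody siRNA (0.55, adjusted p = 0.00951), with a non-silencing mean of 9.90 between 10.13 and 9.58. It was the only call of 13 in its pathway (7.69%, against 1.65% of all genes called higher). ADM, the vasodilator peptide adrenomedullin, was lower (-0.44, adjusted p = 0.00955), with a non-silencing mean of 5.66 near that of NoBody siRNA (5.60). ADM and ARRDC4 were the called genes of 13 related to oxidative stress and hypoxia, 1 in each direction (7.69%, against 1.56% of all genes lower and 1.65% higher). The calls of GPI, SQLE and ADM were each lost without NoBody replicate 1. That of GPI was also lost without any 1 of 4 further arrays, and that of SQLE without Dcp2 replicate 1. Of 23 measured genes of the respiratory chain and ATP synthase limma called 0, with a median of 0.01. An unadjusted p under 0.05 was reached by 1 of them, and by 16.1% of all genes.

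Genes of the translation machinery gave 6 calls, 5 lower and 1 higher with NoBody siRNA. Of 52 measured cytoplasmic ribosomal protein genes limma called 0, with 5 at an unadjusted p under 0.05, and the median was -0.03. Of 73 mitochondrial ribosomal protein genes, MRPL11, MRPL17 and MRPL9 were called lower, at -0.46, -0.38 and -0.31 (adjusted p = 0.0196, 0.037 and 0.0443) from non-silencing means of 7.64, 7.03 and 8.59. That is 4.11% of the list against 1.56% of all genes, with 14 of the 73 at an unadjusted p under 0.05 and a median of -0.05. Of 34 translation factors, 3 were called, 2.94% higher and 5.88% lower, against 1.65% and 1.56% of all genes. An unadjusted p under 0.05 was reached by 11, a threshold that 16.1% of all genes passed. EIF4EBP1, a repressor that binds eIF4E, had means of 8.44 ± 0.04 with NoBody siRNA, 8.96 ± 0.06 with Dcp2 siRNA and 9.12 ± 0.28 with non-silencing siRNA (SD, n = 3) and differed by -0.52 (adjusted p = 0.0471). EEF1G, a subunit of elongation factor 1, differed by -0.33 (adjusted p = 0.0295), had a non-silencing mean of 12.11 and was not called with the mean of its probe sets. EIF2AK2, the kinase PKR that halts translation on double-stranded RNA, was higher with NoBody siRNA by 0.51 (adjusted p = 0.0227), with a non-silencing mean of 8.57 near that of NoBody siRNA (8.68). It was also the only call among 18 interferon-response genes (5.56%, against 1.65% of all genes called higher). The calls of these 6 genes were lost without NoBody replicate 1, among other arrays.

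Zinc finger genes, which mostly encode DNA-binding repressors, were the largest group of called genes on the NoBody side. Of 471 measured genes with a ZNF symbol, 22 were called higher with NoBody siRNA (4.67%, against 1.65% of all genes) and 1 was called lower (0.212%, against 1.56%). In all, 289 lay above 0 and 182 below it, with a median of 0.06. Against non-silencing, the median was 0.12 with NoBody siRNA and 0.05 with Dcp2 siRNA. ZNF652 measured 8.33, 8.19 and 7.97 on the NoBody arrays, 7.28, 7.31 and 7.56 on the Dcp2 arrays, and 7.42, 7.71 and 7.67 on the non-silencing arrays. Its NoBody arrays lay above all others, with a difference of 0.78 (SE 0.13, adjusted p = 0.00363), and 0.56 against non-silencing (adjusted p = 0.0372).

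ZNF845 and ZNF605 differed by 0.86 (adjusted p = 0.00985) and 0.84 (adjusted p = 0.0264), again with non-silencing at the Dcp2 level (4.79 against 4.72, and 4.54 against 4.55). ZNF594 differed by 0.77 (adjusted p = 0.0425) with a non-silencing mean of 4.31, and by 0.51 without NoBody replicate 1. The gene called lower was ZNF428 (-0.55, adjusted p = 0.00935, and -0.49 against non-silencing), named here after its value was seen because it was the only one, and its call was lost without NoBody replicate 2. Many ZNF genes lie in clusters of similar sequence, and how far probes are shared between them was not tested. Of the 4 named ones, the call of ZNF652 alone held without each array. Without NoBody replicate 1 or Dcp2 replicate 1, 4 ZNF genes were called in place of 23, and without each other array 13 or more. Over all genes, those 2 fits called 149 and 167 in place of 477.

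Small RNA genes had 1115 named members, of which 3 were called, all lower with NoBody siRNA (0.269%, against 1.56% of all genes). The array measures total RNA without separating precursor from mature forms, so these values refer to the locus. MIR3143 measured 8.15, 8.36 and 8.41 with NoBody siRNA, 9.63, 9.25 and 9.18 with Dcp2 siRNA, and 8.14, 8.30 and 8.40 with non-silencing siRNA. Its Dcp2 arrays were high while NoBody and control overlapped, and the difference was -1.05 (SE 0.19, adjusted p = 0.00596), held without each array. MIR4748, whose hairpin lies within the gene DNM2, measured 4.06, 5.58 and 5.86 with NoBody siRNA, 6.52, 6.23 and 6.64 with Dcp2 siRNA, and 6.50, 6.01 and 6.50 with non-silencing siRNA, for a difference of -1.30 (SE 0.33, adjusted p = 0.0463). NoBody replicate 1 was far below the others, and without it the difference was -0.75. The call was lost without any 1 of 8 arrays and with the array score as a covariate (adjusted p = 0.0582).

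MIR3188 differed by -0.73 (adjusted p = 0.0444), with means of 4.53, 5.25 and 4.67 with NoBody, Dcp2 and non-silencing siRNA, and its call was lost without any 1 of 7 arrays. It is shown because its locus (chr19:18282129-18282151, plus strand, RefSeq GRCh38.p14) lies beside JUND, its nearest protein-coding gene, which was called in the same direction. JUND is on the minus strand, and the MIR3188 hairpin overlaps the long non-coding RNA gene LOC124904652. The mature sequence carries its seed, bases 2 to 8, in capitals.
hsa-miR-3188: aGAGGCUUugugcggauacgggg

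Some genes that stood far from the control with both siRNAs did not differ between them by the test. HABP4, an RNA-binding protein, measured 7.76, 7.83 and 7.73 on the NoBody arrays, 7.76, 7.81 and 7.73 on the Dcp2 arrays, and 6.52, 6.64 and 6.40 on the non-silencing arrays. Both siRNA groups covered the same values, 1.25 above the control. The difference between them was 0.01 with a 95% interval of -0.19 to 0.20. TPM4, a tropomyosin of actin filaments, differed by -0.16 (interval -0.40 to 0.07) around means of 8.69 and 8.85 against 7.54 with non-silencing siRNA. G3BP2, a core protein of stress granules, differed by 0.25 (interval -0.05 to 0.55) around 7.25 and 7.0 against 6.15. These 3 were named after their values were seen. HABP4 and TPM4 were also high with DcpS siRNA (7.32 and 8.87) and GAPDH siRNA (7.83 and 8.62), as was G3BP2 (7.0 and 7.17).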

How the data were processed

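Total RNA was measured on whole-transcript Affymetrix arrays. Deposited values are per probe set and log2, a base inferred from their range. RMA and oligo made them, per the submitters' processing notes. Their versions, the probe set definition and the build are not given in the sources used here. RMA's quantile step gives arrays like distributions, so a shift of all transcripts cannot be seen. No detection calls were used. Precision is limited by how many arrays there are.

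Of 53617 probe sets, 16098 were paired with 1 gene and 0 with several. The 37519 unnamed ones were tested only apart. For 779 genes with several probe sets, that with the highest mean over 15 arrays was used, leaving 14884 genes. No arrays were identical.

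A linear model with a mean per group was fitted to all 15 arrays in R 4.3.3 with limma 3.58.1. Tests were two-sided, Benjamini-Hochberg adjusted over all genes of a contrast, and called under 0.05. Named genes were the siRNA targets, the 12 largest called differences in each direction with groups that do not overlap (small RNAs and olfactory receptors left out), up to 4 called members of each list, and all decapping and P-body genes. The genes of the promoter section were named for the motif. List members given as not called were named after their values were seen. Members and lists were chosen with earlier results of these data known. On data simulated for NoBody against Dcp2 siRNA over 14884 genes, 95% of changes of 1 log2 unit and 51% of 0.5 were recovered, and 4.58% of calls were false. The simulated noise was independent between genes and arrays. The real arrays share the array score (24.7% of the variance within groups), so these rates may not hold for them. Alternatives were other arrays, normalization, filters, probe set rules, variance models and covariates, and each array left out.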

Additional observations from a re-analysis of the deposited data

Results flagged for a closer look

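Of 37519 unnamed probe sets, which entered no comparison above, 143 differed between NoBody and Dcp2 siRNA at a limma adjusted p under 0.05 (0.381%), 61 higher and 82 lower with NoBody siRNA. MKNK2 (-1.45) and TMEM184B (-0.94) stand out because each siRNA was called against non-silencing in the opposite direction, and the direct difference was itself tested (adjusted p = 1.12e-05 and 6.59e-05).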

How the results depend on the processing

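Leaving out single arrays gave 149 to 499 genes called between NoBody and Dcp2 siRNA, 79 to 202 between NoBody and non-silencing siRNA, and 41 to 393 between Dcp2 and non-silencing siRNA, against 477, 233 and 294. Array weights gave 789 for the direct comparison and 487 for Dcp2 against non-silencing. With only the compared arrays, the contrasts with non-silencing gave 53 and 39, and the array score as a covariate gave 124 for Dcp2 against non-silencing. The cause was not tested, beyond the fewer samples of the smaller fits. Called genes of the immediate early list were 7 without the genes of lowest mean level and 8 with array weights, against 4 (counts by array for lists were added after the data were seen). The counts over all genes were 564 and 789 in these settings, against 477. Correlations of deviations of same-numbered NoBody and Dcp2 arrays were -0.198, -0.020 and -0.110, and only this pair of groups was checked. The array score was highest on replicate 3 with NoBody (11.58), DcpS (4.58), GAPDH (11.85) and non-silencing siRNA (4.09). With Dcp2 siRNA it was highest on replicate 1 (10.67). Whether these groups share a replicate effect was not tested directly. With the replicate number as a block, 483 genes were called in the direct comparison, 246 for NoBody and 436 for Dcp2 against non-silencing. Of 1457 values of named genes under alternatives, 1275 kept their side of the threshold and 182 lost the call. Direction was followed only where a gene was called, and 0 of those values reversed. Some genes that were not called changed sign between settings, such as DCP1A (-0.15 to 0.06) and EDC4 (-0.03 to 0.07). Of 60 named called genes, 28 stayed called without each of 9 arrays and 43 under every other alternative. With 3 arrays a group, changes near 0.5 log2 units were often missed in simulation.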
